A study of Mus musculus with 18 samples.

Results

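DNA replication machinery here means 42 protein-coding genes whose products license replication origins, open and copy DNA, join the lagging strand, supply deoxynucleotides and load histones behind the fork. The genes were taken from a list of GENCODE M21 symbols, and the estimated reads of their transcripts were summed per gene in every library. All 42 were found among the 46167 genes of the libraries, and all 42 passed the expression filter that left 17500 genes for testing. By role they comprise 11 genes of origin recognition and licensing, 7 of helicase activation and the replisome, 8 of primase and the polymerases, 6 of the sliding clamp and its loader, 3 of the single-strand binding protein RPA, 2 of Okazaki fragment processing, 3 of nucleotide supply and 2 of chromatin assembly.

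The RNA came from hematopoietic progenitors of E14.5 fetal livers of CD-1 mice, enriched with a commercial kit to which a CD71 antibody had been added. The cells received an MSCV retrovirus with a puromycin-IRES-GFP cassette and a short hairpin RNA (shRNA), and grew for 48 hours in expansion medium with SCF, erythropoietin and dexamethasone. Day 2 libraries are from cells that then spent 2 more days in differentiation medium with FCS, PDS and more erythropoietin, and without the SCF and dexamethasone of the expansion medium, and Day 0 libraries are from cells collected when expansion ended. On each day the groups were PCBP1 knockdown (hairpins 1, 3 and 4), PCBP2 knockdown (hairpins 1, 3 and 4) and control (2 scrambled hairpins, SCR-1 and SCR-2, and 1 luciferase hairpin, LUC-1), with 3 libraries in each of the 6 groups and 18 in all. All groups, controls included, carry the virus and a hairpin. The targets bind C-rich stretches of RNA and act in splicing, translation and mRNA stability. Replicates of a target carry different hairpins, and the labels do not say that the libraries came from separate cultures, so p-values measure the spread between these libraries. Values of 3 libraries are given in the order hairpins 1, 3 and 4 for a knockdown and SCR-1, SCR-2 and LUC-1 for the control.

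Replication origins are licensed in G1, when the origin recognition complex, Cdc6 and Cdt1 load the Mcm2-7 helicase, which Cdc45 and the GINS complex later activate. Polymerase alpha with primase starts each strand, the clamp loader (RFC) places the clamp Pcna, and polymerases delta and epsilon extend. Erythroid progenitors divide rapidly and then leave the cycle as they mature, and most replication genes are known E2F targets, expressed around the entry into S phase.

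Promoter sequences of these genes were set beside those of all genes. RefSeq windows (GRCm38.p6) of 250 bases before to 50 bases after a start were held for 34 of the 42 genes, as 39 windows of 300 bases. Gins1, Gins2, Gins4, Gmnn, Mcm4, Pole, Prim2 and Rfc2 were not matched. They were searched on both strands for the E2F letters TTTCCCGC, TTTCGCGC, TTTGCCGC and TTTGGCGC, for the letters CCAAT (the NF-Y box), and for the cell-cycle homology region letters TTTGAA and TTCGAA. E2F letters stood in 13 of the 39 member windows (33.3%) and in 744 of the 32851 windows of all genes (2.26%). CCAAT stood in 23 member windows (59%) against 37.4% of all windows, and the cell-cycle homology letters in 7 (17.9%) against 19.2%. Both E2F letters and CCAAT were held by 8 member windows (20.5%) against 0.962% of all windows. A match is a description of letters, not of a bound site. The median GC content was 61.3% in member windows and 52.7% in all windows.

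Mcm5 and Mcm6 encode subunits of the helicase ring, and their promoters are shown because each holds E2F letters that read in both directions together with CCAAT boxes. Capitals mark the E2F letters and CCAAT on either strand, where ATTGG is CCAAT on the opposite strand. Each sequence runs 5′ to 3′ on the strand of its gene: Mcm5 at chr8:75109309-75109508 on the plus strand, and Mcm6 at chr1:128359706-128359905 on the minus strand.
Mcm5: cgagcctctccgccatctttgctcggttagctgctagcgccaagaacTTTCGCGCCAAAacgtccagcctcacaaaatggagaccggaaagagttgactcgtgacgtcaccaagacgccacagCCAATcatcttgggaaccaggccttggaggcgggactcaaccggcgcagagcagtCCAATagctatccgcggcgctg
Mcm6: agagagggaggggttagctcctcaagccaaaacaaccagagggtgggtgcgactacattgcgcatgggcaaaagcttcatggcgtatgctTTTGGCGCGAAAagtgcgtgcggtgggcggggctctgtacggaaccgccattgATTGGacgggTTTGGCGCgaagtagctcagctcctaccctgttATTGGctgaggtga

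Shorter stretches of 30 bases around the letters follow for members on which the results below turn. Rfc3 and Gins3 are higher in Day 2 PCBP1 knockdown than in control, Orc1 is the member that differed least between the days in control cells, Pold1 has the lowest levels of its Day 0 groups in the PCBP1 knockdown, and in Mcm7 the E2F letters overlap CCAAT. The coordinates are chr5:151651190-151651219 minus for Rfc3, chr8:95633507-95633536 plus for Gins3, chr4:108579416-108579445 plus for Orc1, chr7:44548766-44548795 minus for Pold1 and chr5:138171849-138171878 minus for Mcm7.
Rfc3: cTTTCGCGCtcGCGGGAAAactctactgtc
Gins3: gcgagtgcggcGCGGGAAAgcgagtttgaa
Orc1: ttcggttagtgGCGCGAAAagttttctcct
Pold1: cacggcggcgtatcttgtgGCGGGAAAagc
Mcm7: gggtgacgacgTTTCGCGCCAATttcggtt

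In 3 members with extreme day differences, the window held CCAAT and no E2F letters. Rpa3 and Pold2 had the most negative differences between the days, and Rrm2 one of the smallest. The coordinates are chr6:8259180-8259209 minus for Rpa3, chr11:5878207-5878236 minus for Pold2 and chr12:24708191-24708220 plus for Rrm2.
Rpa3: tacgtctcctctgATTGGtgttcgggaaat
Pold2: gggcgggacgggcgcgcagagATTGGcggg
Rrm2: gggtcagcggcgtCCAATgggaggcgaggc

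The libraries held 27033440 to 54096339 estimated reads. Pcbp1 stood at 15.6 to 57.2 CPM (normalised read counts, scaled to the TMM-adjusted library size) in the Day 2 PCBP1 knockdown, against 241 to 284 in Day 2 control, and Pcbp2 at 37 to 48 CPM in the Day 2 PCBP2 knockdown, against 225 to 247 in Day 2 control. At Day 0 the targets stood at 14.2 to 59.4 CPM against 186 to 206 for Pcbp1 and at 70.3 to 73.5 against 282 to 299 for Pcbp2, knockdown against control. One library stood apart: on the first principal component of the Day 2 libraries LUC-1 scored −74.92, against −1.27 and −11.4 for the scrambled controls, and each comparison with Day 2 control is therefore given with and without it. Globin transcripts took 24.75 to 33.48% of the reads at Day 2 and 0.3 to 0.49% at Day 0. Of 12 erythroid markers, 11 were in the tables and none was at 0, and the early progenitor markers were all detected, so the libraries carry the markers of the labelled lineage. They also carry markers of other cells. The 9 granulocyte markers were all detected, and summed to 895 to 1340 CPM at Day 2 and 923 to 1080 CPM at Day 0. The early progenitor markers summed to 208 to 361 and 545 to 655 CPM.

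The replication genes took a far smaller part of the RNA at Day 2 than at Day 0. Their summed share of the reads was 0.138, 0.103 and 0.134% in the Day 2 PCBP1 knockdown, 0.0911, 0.103 and 0.0895% in the Day 2 PCBP2 knockdown and 0.105, 0.0994 and 0.068% in Day 2 control. At Day 0 it was 0.776, 0.854 and 0.806% in the PCBP1 knockdown, 0.827, 0.82 and 0.851% in the PCBP2 knockdown and 0.812, 0.796 and 0.839% in control. In bulk RNA, fewer cells of a type (such as cells in S phase) and less RNA per cell cannot be told apart. The days did not overlap, and at Day 2 the highest 2 libraries were PCBP1 knockdown and the lowest was LUC-1. After scaling by TMM factors, which lessens the weight of the globins, the summed level averaged 1971 ± 264 CPM in the Day 2 PCBP1 knockdown, 1528 ± 100 in the Day 2 PCBP2 knockdown and 1672 ± 275 in Day 2 control (SD, n = 3 each). The Day 0 sums averaged 4765 ± 287, 5018 ± 122 and 4873 ± 142 CPM in PCBP1 knockdown, PCBP2 knockdown and control. By library, the Day 2 sums were 2167, 1671 and 2074 CPM in the PCBP1 knockdown, 1560, 1608 and 1415 in the PCBP2 knockdown and 1838, 1824 and 1354 in control, so that hairpin 3 of PCBP1 lay below both scrambled controls and LUC-1 below every other library.

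**Figure D1:**
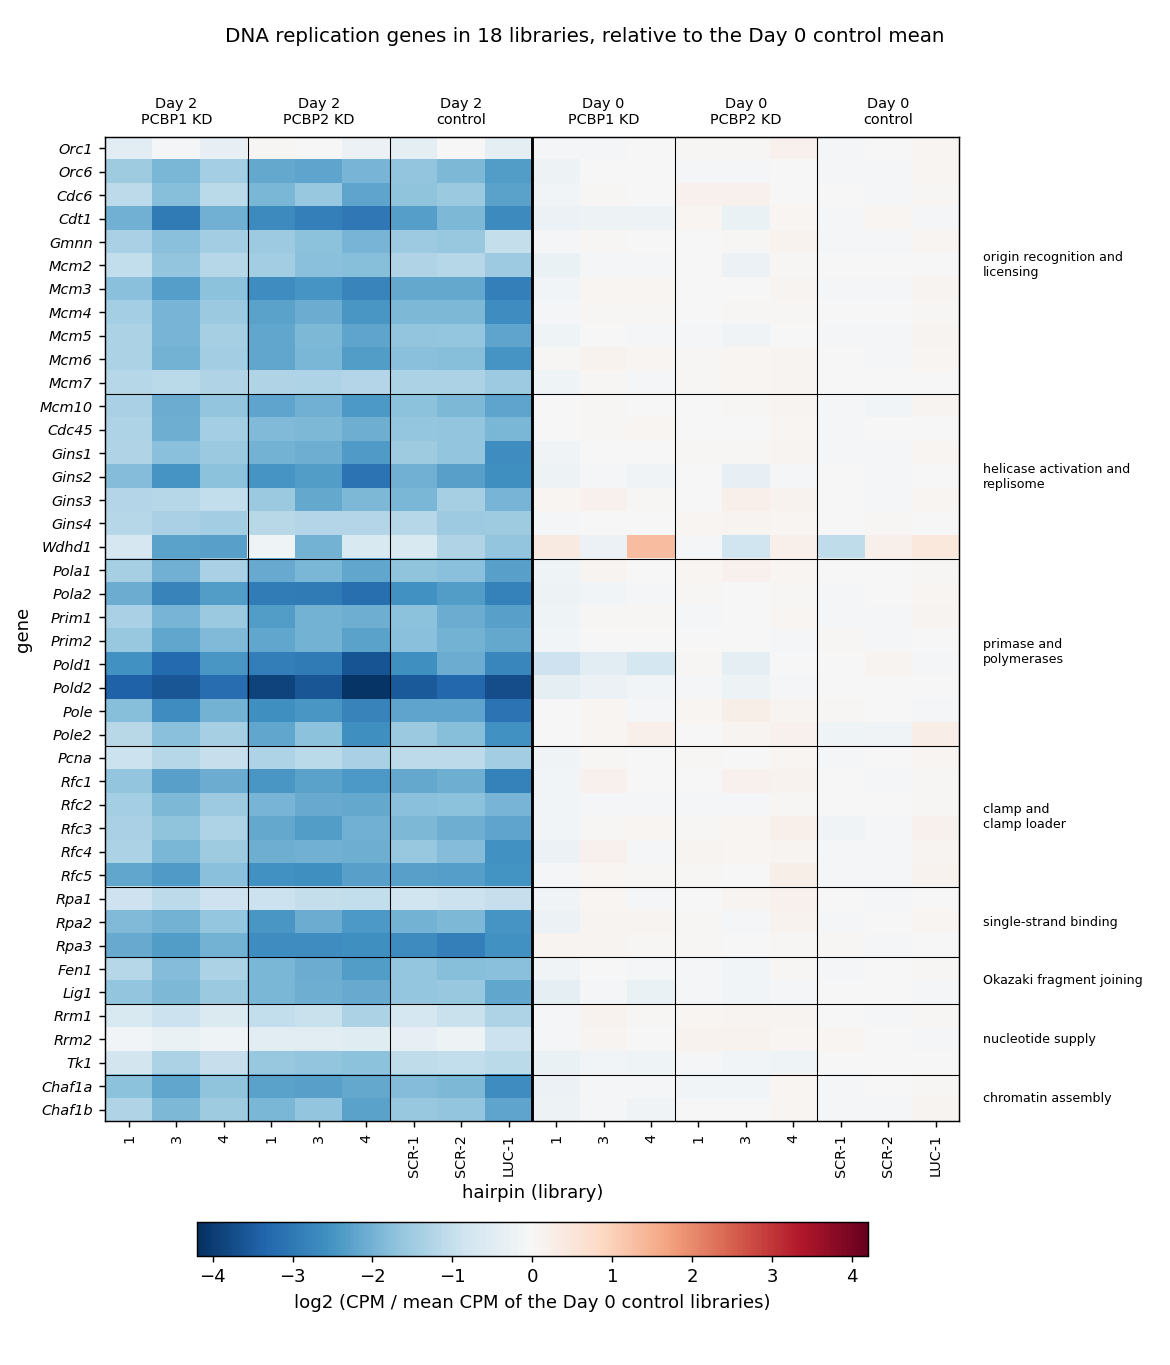
Level of each of the 42 genes in each of the 18 libraries, as log2 of CPM over the mean of the 3 Day 0 control libraries (colour), with genes in rows ordered by role and libraries in columns. The 9 Day 2 columns are lower than the 9 Day 0 columns for nearly every gene, Orc1 and Rrm2 differ least, and within Day 2 the LUC-1 column and the PCBP2 hairpin 4 column are the lowest in 16 genes each.

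Between the days, 40 of the 42 genes fell in PCBP1 knockdown cells, 40 fell in PCBP2 knockdown cells and all 42 fell in control cells, and none rose. In the whole transcriptome 41.7% of the genes tested were called lower and 40.3% higher at Day 2 in the PCBP1 knockdown, 42.2% and 41% in the PCBP2 knockdown, and 42.4% and 40.5% in control (edgeR quasi-likelihood test, Benjamini-Hochberg adjusted p under 0.05 over 17500 genes). The median log2 difference of the members was −1.52 in the PCBP1 knockdown, −2.12 in the PCBP2 knockdown and −1.89 in control, against −0.05 for all genes tested in control. Without LUC-1 at Day 2, 40 members fell in control, all but Orc1 and Wdhd1, and the median was −1.75. With library totals in place of TMM factors the median of all genes moved to −1.47 in the PCBP1 knockdown, −1.45 in the PCBP2 knockdown and −1.68 in control. Relative to the median of all genes, the members' median stood at −1.48, −2.08 and −1.84 log2 units in PCBP1 knockdown, PCBP2 knockdown and control with TMM factors, and at −1.48, −2.1 and −1.83 with library totals. Over the same days the erythroid markers summed to 216000 to 393000 CPM in the 9 Day 2 libraries and 2670 to 3340 CPM in the 9 Day 0 libraries, and the early progenitor markers to 208 to 361 CPM at Day 2 and 545 to 655 CPM at Day 0. Megakaryocyte markers summed to 645 to 814 CPM at Day 2 and 255 to 321 CPM at Day 0, and macrophage and monocyte markers to 12.8 to 13.4 CPM in Day 2 control and 28.9 to 32.2 CPM in Day 0 control. The erythroid list includes the globins Hba-a1 and Hbb-bt, and its sum was not split between globins and other markers. The part of these markers in the fall of the replication genes was not tested.

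Pold2 and Rpa3 had the most negative differences in control. Pold2, the accessory subunit of polymerase delta (chr11:5872180-5878292, minus strand), had 3.6, 4.16 and 3.14 CPM in Day 2 control and 40.6, 41.5 and 41.2 CPM in Day 0 control, with no overlap. Its log2 difference was −3.13 (SE 0.14; adjusted p 5.4e-15) in the PCBP1 knockdown, −3.72 (SE 0.14; adjusted p 6.01e-16) in the PCBP2 knockdown and −3.49 (SE 0.14; adjusted p 8.63e-16) in control. Pold1, the catalytic subunit of the same polymerase (chr7:44532746-44548849, minus strand), had 7.67, 10.7 and 6.75 CPM in Day 2 control and 44.6, 49.5 and 42.8 CPM in Day 0 control. Pold1 fell by 2.44 (SE 0.20), which is less than its partner, and both are among the 6 members with the most negative difference in control.

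Rpa3, the small subunit of the single-strand binding trimer (chr6:8255936-8259173, minus strand), had 3.86, 3.34 and 4.19 CPM in Day 2 control and 25.1, 23.2 and 24.2 CPM in Day 0 control. It fell by 2.67 (SE 0.12; adjusted p 6.45e-15). Its large partner Rpa1 had 102, 99.5 and 93.6 CPM in Day 2 control and 186, 178 and 188 CPM in Day 0 control, and fell by only 0.91 (SE 0.09; adjusted p 4.19e-09). The subunits of one trimer thus differed in how far they declined. Pola2, the accessory subunit of polymerase alpha (chr19:5940542-5964202, minus strand), had 15.9, 18.3 and 12.9 CPM in Day 2 control and 89.2, 91.2 and 97.3 CPM in Day 0 control and fell by 2.56 (SE 0.14). Pole, the catalytic subunit of the leading-strand polymerase, had 23.7, 23.6 and 12.7 CPM in Day 2 control and 115, 108 and 106 CPM in Day 0 control and fell by 2.45 (SE 0.19). Rfc5, a clamp loader subunit, had 12.6, 12.3 and 10.6 CPM in Day 2 control and 58.6, 57.2 and 66.6 CPM in Day 0 control and fell by 2.36 (SE 0.14). LUC-1 was the lowest of the Day 2 controls for Pola2, Pole and Rfc5 and the highest for Rpa3.

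At the other end were Orc1 and the nucleotide supply genes, whereas Orc6, another origin recognition subunit, differed by −1.92 in control. Orc1, the largest subunit of the origin recognition complex (chr4:108579423-108614833, plus strand), had 29.3, 37.9 and 29.7 CPM in Day 2 control and 37.3, 37.9 and 40.6 CPM in Day 0 control, and the SCR-2 libraries of the days had the same value. Its fall of 0.25 (SE 0.12; adjusted p 0.0492) was called in 6 of 16 alternative settings and not without LUC-1 (adjusted p 0.0726), and Orc1 was not called in the PCBP1 knockdown (−0.23, adjusted p 0.0733) or the PCBP2 knockdown (−0.15, adjusted p 0.236). Rrm2, the small subunit of ribonucleotide reductase (chr12:24708241-24714146, plus strand), had 231, 252 and 156 CPM in Day 2 control and 306, 288 and 279 CPM in Day 0 control. It fell by 0.45 (SE 0.12; adjusted p 0.00157) in control and by 0.60 (SE 0.12) in the PCBP2 knockdown. In the PCBP1 knockdown Rrm2 differed by −0.20 (SE 0.12; adjusted p 0.123), with 270, 242 and 259 CPM at Day 2 and 277, 312 and 296 CPM at Day 0.

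Rrm1, the large subunit of the same enzyme, had 242, 211 and 163 CPM in Day 2 control and 404, 390 and 415 CPM in Day 0 control and fell by 0.97 (SE 0.12). Tk1, the S-phase thymidine kinase (chr11:117815526-117826092, minus strand), had 30, 30.6 and 29.0 CPM in Day 2 control and 63, 64.5 and 62.2 CPM in Day 0 control and fell by 1.08 (SE 0.11). The nucleotide supply genes had a median of −0.97 in control, against medians of −1.74 to −2.22 in the other 7 roles. Wdhd1, a replisome scaffold protein, had 3.96, 2.52 and 1.92 CPM in Day 2 control and 2.95, 7.06 and 8.31 CPM in Day 0 control, which overlap. Its fall of 1.12 (SE 0.48; adjusted p 0.0357) was called in 8 of 16 alternative settings. Wdhd1 shares sequence on the opposite strand with Gm49150, its estimated reads moved between transcripts from library to library, and its values are uncertain.

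The helicase subunits, which form a ring of 6, did not fall evenly. Mcm7 had 136, 136 and 118 CPM in Day 2 control and 340, 332 and 345 CPM in Day 0 control and fell by 1.38 (SE 0.08). Mcm3 (chr1:20802968-20820312, minus strand) had 66.4, 66.6 and 39.8 CPM in Day 2 control and 286, 281 and 316 CPM in Day 0 control and fell by 2.35 (SE 0.16). Mcm2 had 102, 106 and 85.5 CPM in Day 2 control and 239, 247 and 247 CPM in Day 0 control and fell by 1.32 (SE 0.13). Mcm2 and Mcm7 thus declined least of the ring in control, and Mcm3 most.

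Mcm4 (chr16:15623897-15637400, minus strand) had 63.7, 64.3 and 38.9 CPM in Day 2 control and 234, 233 and 245 CPM in Day 0 control. Mcm5 had 90.3, 92.6 and 62.1 CPM in Day 2 control and 274, 277 and 310 CPM in Day 0 control, and Mcm6 had 107, 104 and 64.6 CPM in Day 2 control and 357, 350 and 381 CPM in Day 0 control. These 3 genes fell by 2.09 (SE 0.15), 1.81 (SE 0.15) and 1.98 (SE 0.16), and LUC-1 was the lowest Day 2 control for each. In TPM, the abundance per transcript length that Salmon gives, the ratio of Mcm3 to Mcm7 ran from 0.171 to 0.402 over the 9 Day 2 libraries and from 0.645 to 0.849 over the 9 Day 0 libraries. The ratio of Mcm6 to Mcm7 ran from 0.227 to 0.554 at Day 2 and from 0.744 to 0.879 at Day 0, again with no overlap. The ratio of Mcm2 to Mcm7 ran from 0.195 to 0.399 at Day 2 and from 0.348 to 0.481 at Day 0, which overlap. In CPM, the control means of Mcm2 and Mcm7 were 98 and 130 at Day 2 and 244 and 339 at Day 0. In TPM they were 16 and 45.5 at Day 2 and 158 and 340 at Day 0, so this ratio was lower at Day 2 in TPM but not in CPM. Noncoding transcripts held 7.9% of the Mcm7 reads in Day 2 control and 2.57% in Day 0 control, and their part in the ratios was not tested. The exons of Mcm7 hold the precursors of Mir25 and Mir93 on the same strand and overlap neighbours on the other. The exons of Orc1, Orc6, Cdc45, Gins2, Wdhd1, Pole, Pole2, Rfc2, Rfc4, Rfc5, Rpa1, Fen1, Lig1, Tk1 and Chaf1a also overlap other genes. The strand setting of the counting is not given in the sources used here, and reads of such neighbours cannot be told apart.

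Some other partners also had ratios that did not overlap between the days. The ratio of Rpa3 to Rpa1 in TPM was 0.154 to 0.288 at Day 2 and 0.604 to 0.772 at Day 0, and that of Orc6 to Orc1 was 0.33 to 1.18 at Day 2 and 2.39 to 3.03 at Day 0. The ratio of Pold2 to Pold1 was 0.424 to 1.31 at Day 2 and 1.38 to 2.31 at Day 0, and that of Pola2 to Pola1 was 0.992 to 1.47 at Day 2 and 1.86 to 2.2 at Day 0. Rrm2 to Rrm1 moved in the other direction, at 2.16 to 3.12 at Day 2 and 1.35 to 1.52 at Day 0. Other ratios overlapped: Prim2 to Prim1 was 0.558 to 0.799 at Day 2 and 0.624 to 0.769 at Day 0, and Fen1 to Lig1 was 0.675 to 1.15 at Day 2 and 0.71 to 0.907 at Day 0. So did the ratios of Gins1, Gins2 and Gins3 to Gins4, of Rfc1, Rfc3, Rfc4 and Rfc5 to Rfc2, of Pole2 to Pole and of Chaf1a to Chaf1b. These ratios are given without a test.

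In order of level per length, the members ranged widely. At Day 0 the highest was Pcna, the sliding clamp (chr2:132249162-132253314, minus strand), with a median of 538 TPM over the 9 libraries (486 to 590), followed by Mcm7 with 350, Rrm2 with 335, Mcm6 with 282 and Mcm3 with 256 TPM. The lowest were Gins3 with 12.8 and Wdhd1 with 3.71 TPM. At Day 2 Rrm2 was highest with a median of 79.9 TPM (41.1 to 100), then Pcna with 67.1 (39.1 to 94.5) and Mcm7 with 62 (34.7 to 69.1), and these 3 ranges overlap. Gins3 with 1.14 and Wdhd1 with 0.387 TPM were again lowest. In CPM, Pcna had 109, 108 and 83.9 in Day 2 control and 223, 231 and 245 in Day 0 control and fell by 1.22 (SE 0.11).

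**Figure D2:**
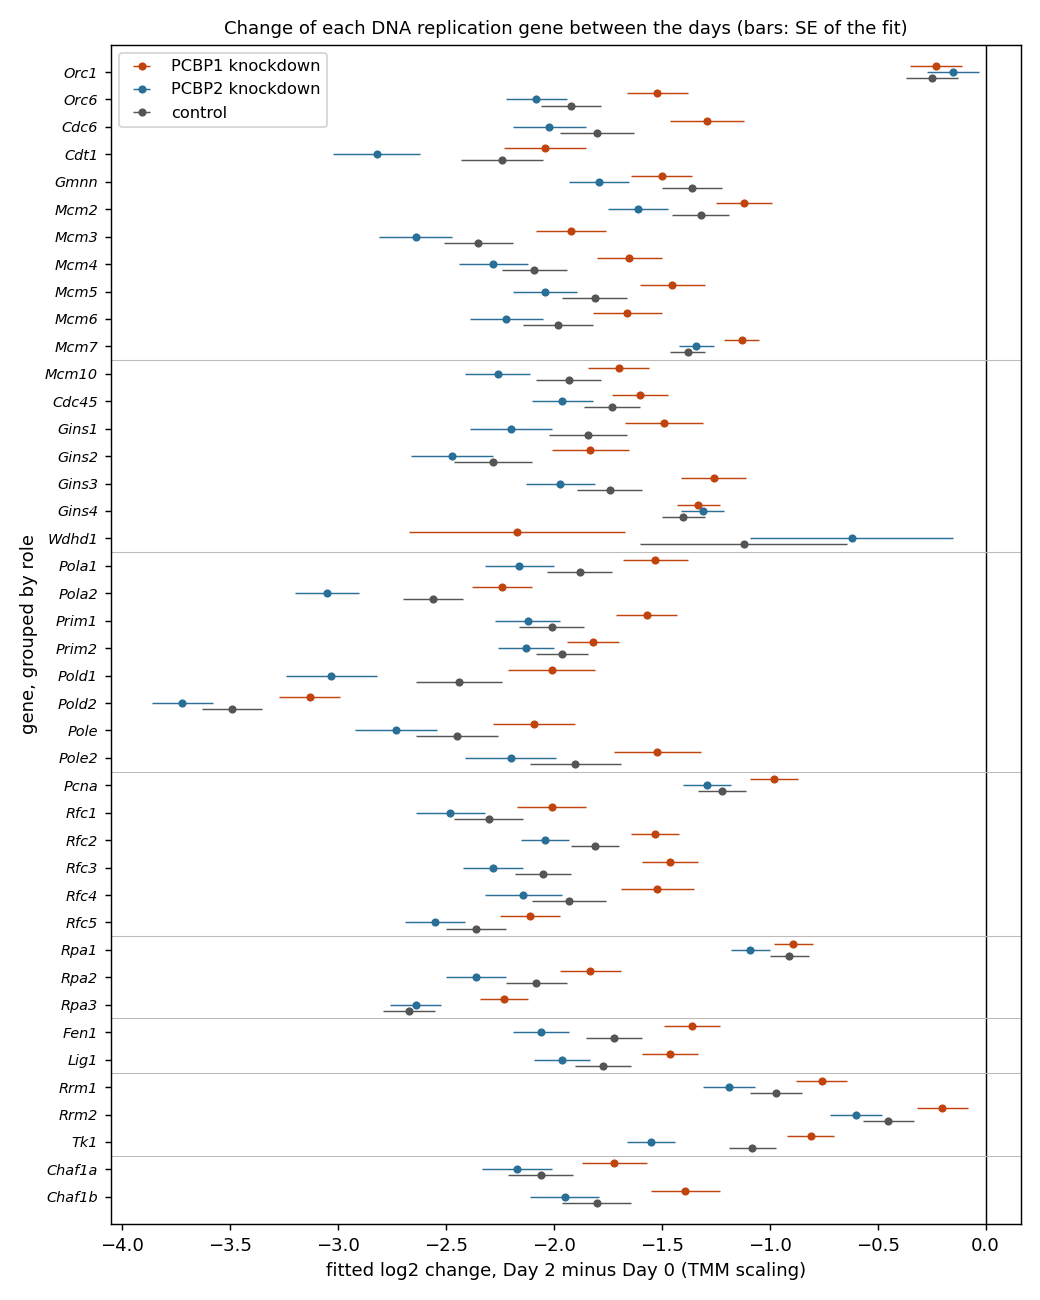
Fitted log2 difference, Day 2 minus Day 0, of each of the 42 genes in PCBP1 knockdown, PCBP2 knockdown and control cells, with bars of 1 standard error (n = 3 libraries per group and day). Pold2 lies lowest at −3.13 to −3.72, Orc1 and Rrm2 lie nearest 0, and for most genes the PCBP2 knockdown point is the lowest of the 3 and the PCBP1 knockdown point the highest.

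The members not yet given a day difference here differed by −1.36 (Gmnn) to −2.30 (Rfc1) in control, and all were called. By role, the median day difference in control was −1.81 for licensing, −1.74 for helicase activation, −2.22 for primase and polymerases, −1.99 for the clamp and loader, −2.08 for RPA, −1.75 for Okazaki processing and −1.93 for chromatin assembly. In the PCBP1 knockdown the role medians lay between −0.76 for nucleotide supply and −1.91 for primase and polymerases, and in the PCBP2 knockdown between −1.19 and −2.46 for the same roles. Whether a knockdown changed the day difference was tested directly. No member passed in either case: 40 of 42 differences were positive for PCBP1, with a median of 0.32 and 8 at an unadjusted p under 0.05, and 37 of 42 were negative for PCBP2, with a median of −0.22 and 4 at an unadjusted p under 0.05. In the whole transcriptome 0.137% of genes were called higher and 0.251% lower for PCBP1, and 0 and 0% for PCBP2. Without LUC-1 the medians were 0.15 and −0.39. DESeq2 and limma-voom also called no member in either. The smallest p belonged to Rfc3 for PCBP1 (0.59, SE 0.18, adjusted p 0.146), ahead of Rpa3 (0.44), Gins3 (0.48) and Prim1 (0.44), and to Tk1 for PCBP2 (−0.47, SE 0.15, adjusted p 0.419), ahead of Pola2 (−0.49), Gmnn (−0.43) and Cdt1 (−0.58).

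At Day 2 in PCBP1 knockdown cells, 4 of 42 replication genes rose relative to control and none fell: Rfc3, Rpa3, Gins3 and Mcm4. They are 9.52% of the members, against 5.51% of all genes tested that were called higher and 7.61% that were called lower. The median member difference was 0.26, against 0.02 for all genes, 36 of 42 differences were above 0 and 16 had an unadjusted p under 0.05. Without LUC-1, 2 members were called higher, Rfc3 and Rpa3, against 2.82% of all genes called higher and 5.46% lower, and the median was 0.11 with 34 differences above 0. With the 9 libraries of Day 2 alone, whose spread is wider (common dispersion 0.0293, against 0.0169 over the 18 libraries), no member was called, against 1.83% of all genes called higher and 4.11% lower. With library totals in place of TMM factors, which moved the median of all genes to 0.25 and that of the members to 0.49, 25 members were called higher and none lower.

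Rfc3, a subunit of the clamp loader (chr5:151642756-151651242, minus strand), had 9.91, 8.0 and 10.4 CPM in the Day 2 PCBP1 knockdown, from 141 to 197 reads, against 6.85, 6.2 and 5.47 CPM in Day 2 control, from 94 to 135 reads. Every knockdown library was above every control. The means were 9.42 ± 1.3 CPM in the PCBP1 knockdown and 6.17 ± 0.69 in control, a log2 difference of 0.61 (SE 0.14; adjusted p 0.00665), and it was 0.52 without LUC-1 (adjusted p 0.0417) and called in 13 of 15 alternative settings, but not with the 9 libraries of Day 2 alone (adjusted p 0.0547) or with limma-voom (0.0804). In TPM, Rfc3 stood at 0.368 to 0.443 of Rfc2, another loader subunit, in the Day 2 PCBP1 knockdown, against 0.272 to 0.286 in Day 2 control. Transcripts annotated with a retained intron held a mean of 28.61% of the Rfc3 reads in the Day 2 PCBP1 knockdown (11.77 to 42.19%). In Day 2 control they held 12.61% (7.74 to 16.8%), and these ranges overlap. For Rfc2 the mean shares were 57.2% and 58.38%. The part of these transcripts in the Rfc3 difference was not tested.

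Rpa3 had 5.62, 4.71 and 6.1 CPM in the Day 2 PCBP1 knockdown, against 3.86, 3.34 and 4.19 CPM in Day 2 control, again without overlap. The counts behind these values were small, 83 to 116 reads in the knockdown and 69 to 76 in control. The difference was 0.53 (SE 0.13; adjusted p 0.00883), and it was larger without LUC-1, at 0.60 (adjusted p 0.0137), LUC-1 being the highest control. With the Day 2 libraries alone the adjusted p was 0.106, and without PCBP1 hairpin 4 the difference was 0.46 (adjusted p 0.052). Rpa3 stood at 0.24 to 0.288 of Rpa1 in TPM in the Day 2 PCBP1 knockdown, against 0.154 to 0.204 in Day 2 control.

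Gins3, a subunit of the GINS complex (chr8:95633453-95645060, plus strand), had 5.57, 5.78 and 6.47 CPM in the Day 2 PCBP1 knockdown, against 3.45, 4.99 and 3.38 CPM in Day 2 control. The groups did not overlap, SCR-2 was the nearest control, and the difference was 0.59 (SE 0.17; adjusted p 0.0224). Without LUC-1 it was 0.48 and no longer called (adjusted p 0.105). The Gins3 call was also lost without SCR-1 (adjusted p 0.0685), without PCBP1 hairpin 4 (0.0922), with limma-voom (0.153) and with the 9 libraries of Day 2 alone (0.119). Mcm4 had 89.1, 61.0 and 81.1 CPM in the Day 2 PCBP1 knockdown, against 63.7, 64.3 and 38.9 CPM in Day 2 control. Hairpin 3 lay below both scrambled controls, so the groups overlapped. The difference of 0.47 (SE 0.15; adjusted p 0.0443) was 0.26 without LUC-1 (adjusted p 0.255) and 0.39 once the trend with GC content was removed (adjusted p 0.0895). The Mcm4 call was also lost without PCBP1 hairpin 1 (adjusted p 0.247), without hairpin 4 (0.154), with limma-voom (0.136) and with the 9 libraries of Day 2 alone (0.159).

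No other member was called. The next by p were Cdc6 (0.49, adjusted p 0.0617), Mcm3 (0.44, 0.0721), Prim1 (0.41, 0.073) and Mcm6 (0.42, 0.0865). Cdc6, which loads the helicase, had 45.1, 28.4 and 44.2 CPM in the Day 2 PCBP1 knockdown, against 30.4, 32.6 and 20.4 CPM in Day 2 control, and Prim1, the catalytic primase subunit, had 28.4, 18.9 and 24.9 CPM, against 22.1, 17.2 and 15 CPM. In both, hairpins 1 and 4 were above all controls and hairpin 3 was not. The groups did not overlap, with the knockdown above, in 4 members (9.52%: Gins3, Mcm7, Rfc3 and Rpa3), against 9.99% of all genes tested, so that by this count the members were near the background. Mcm7 had 147, 153 and 142 CPM in the Day 2 PCBP1 knockdown, against 136, 136 and 118 CPM in control, and was not called.

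By role the PCBP1 medians at Day 2 lay close together, from 0.18 for Okazaki processing to 0.30 for the clamp and loader, where 6 of 6 genes were above 0, and Mcm2 to Mcm7 had a median of 0.35 with all 6 above 0. Hairpins 1 and 4 lay 0.45 and 0.35 above the median library of the day over the members (log2), and hairpin 3 lay at −0.04. LUC-1 lay at −0.30 and the scrambled controls at 0.17 and 0.10. The summed level of the erythroid markers, whose list includes globins, also differed. It was 216000 to 223000 CPM in the Day 2 PCBP1 knockdown, against 270000, 340000 and 393000 CPM in control. The early progenitor markers summed to 212 to 286 CPM in the PCBP1 knockdown, against 271, 263 and 361 CPM in control. The part of these marker differences in the replication genes was not tested.

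**Figure D3:**
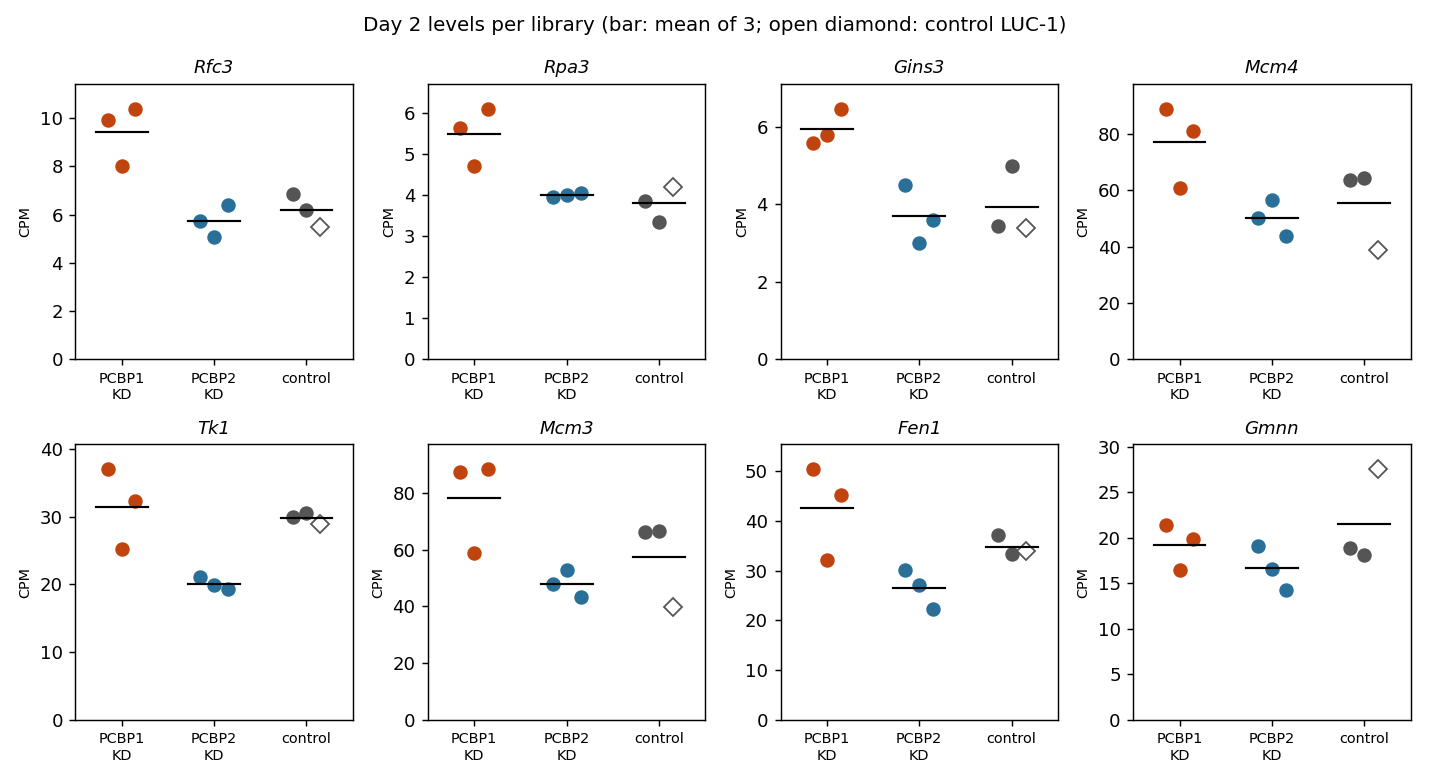
CPM of 8 replication genes in the 9 Day 2 libraries, with a point for each library, a bar at the mean of 3 and an open diamond for the LUC-1 control, in the order PCBP1 knockdown, PCBP2 knockdown and control. Rfc3 and Rpa3 are higher in all 3 PCBP1 knockdown libraries than in any other Day 2 library, Tk1 is lower in all 3 PCBP2 knockdown libraries, and LUC-1 is the lowest control in Mcm3 and Mcm4 but the highest in Rpa3 and Gmnn.

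At Day 2 in PCBP2 knockdown cells, 1 of 42 replication genes fell relative to control, Tk1, and none rose. That is 2.38% of the members, against 3.75% of all genes called lower and 0.949% called higher. The median difference was −0.17, against −0.01 for all genes, with 37 of 42 below 0 and 9 at an unadjusted p under 0.05. Without LUC-1, 7 members (16.7%) fell, Cdt1, Gins1, Lig1, Mcm3, Pola2, Pold1 and Tk1, against 4.25% of all genes called lower and 0.558% higher. The median was then −0.39, against −0.06 for all genes, with 38 below 0 and 29 at an unadjusted p under 0.05. With the 9 libraries of Day 2 alone no member was called, against 0.185% of all genes called lower and 0.0132% higher. With library totals, which moved the median of all genes to 0.19 and that of the members to 0.02, 1 member was called higher and none lower.

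Tk1 had 21.1, 19.9 and 19.3 CPM in the Day 2 PCBP2 knockdown, against 30, 30.6 and 29.0 CPM in Day 2 control. All 3 controls, LUC-1 included, were close together and above every knockdown library. The means were 20.1 ± 0.92 CPM in the PCBP2 knockdown and 29.9 ± 0.82 in control, a fall of 0.57 on the log2 scale (SE 0.11; adjusted p 0.00628), and of 0.65 without LUC-1 (adjusted p 0.00803). With the GC trend removed it was −0.40 (adjusted p 0.0861), and with the Day 2 libraries alone the adjusted p was 0.131. With library totals in place of TMM factors it was −0.38 (adjusted p 0.0634). Part of the Tk1 reads was assigned to transcripts annotated with a retained intron, 36.79 to 53.62% in the Day 2 PCBP2 knockdown and 27.78 to 53.07% in Day 2 control, which overlap. The exons of Tk1 overlap Afmid.

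Pola2 had 12, 11.7 and 10.4 CPM in the Day 2 PCBP2 knockdown, against 15.9, 18.3 and 12.9 CPM in Day 2 control, with no overlap and LUC-1 the nearest control. Its difference was −0.47 (SE 0.15; adjusted p 0.0766), and −0.65 without LUC-1 (adjusted p 0.0226). Pold1 had 6.04, 5.84 and 3.71 CPM in the knockdown, against 7.67, 10.7 and 6.75 CPM in control, a difference of −0.70 (SE 0.23; adjusted p 0.0803) and of −0.89 without LUC-1 (adjusted p 0.0379). Once the GC trend was removed, the Pold1 difference was −0.34 (adjusted p 0.46). The Pold1 exons have a GC content of 60.7%, the highest of the members. Pold1-208, annotated as a target of nonsense-mediated decay, was assigned 0, 4 and 0 reads in the PCBP2 knockdown, against 55, 87 and 96 in control. The coding transcript Pold1-201 was assigned 78, 94 and 39 reads in the knockdown and 63, 123 and 0 in control, which overlap. These reads are not scaled to library size, and the 0 in control is LUC-1. The part of each transcript in the Pold1 difference was not tested.

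Fen1, the flap endonuclease of Okazaki fragments (chr19:10199132-10204169, minus strand), had 30.1, 27.2 and 22.4 CPM in the Day 2 PCBP2 knockdown, against 37.2, 33.4 and 34.0 CPM in control, with no overlap and an adjusted p of 0.099 (−0.39, SE 0.13). Cdt1, the licensing factor, had 9.47, 8.15 and 7.48 CPM, against 12.2, 16.4 and 9.31 CPM in control (−0.60; adjusted p 0.109, and 0.0302 without LUC-1). Lig1, the ligase of the lagging strand, had 46.6, 42.4 and 40.3 CPM, against 56.5, 58.9 and 38.9 CPM in control, where LUC-1 was below every knockdown library. Without LUC-1, Lig1 differed by −0.48 (adjusted p 0.0174). Gmnn (geminin, the inhibitor of Cdt1) had 19.1, 16.6 and 14.3 CPM, against 18.9, 18.1 and 27.5 CPM in control. Unlike for most members, LUC-1 had the highest Gmnn level of the 9 Day 2 libraries.

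The groups did not overlap, with the PCBP2 knockdown below, in 5 members (11.9%: Fen1, Pola2, Pold1, Rfc2 and Tk1), against 10.4% of all genes. With the knockdown above, they did not overlap in Mcm7 alone (2.38%, against 8.09% of all genes), which had 141, 137 and 144 CPM against 136, 136 and 118 CPM in control. All 8 primase and polymerase genes and all 6 clamp and loader genes had differences below 0, with medians of −0.20 and −0.10. Other role medians ran from −0.33 for Okazaki processing to −0.08 for RPA. The erythroid markers summed to 216000 to 269000 CPM in the PCBP2 knockdown, against 270000 to 393000 CPM in control. Early progenitor markers summed to 208 to 229 CPM in the PCBP2 knockdown, against 263 to 361 CPM in control, and endothelial and stromal markers to 32.7 to 35.6 CPM, against 25.8 to 29.8 CPM. None of these ranges overlap, and their part in the result was not tested.

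**Figure D4:**
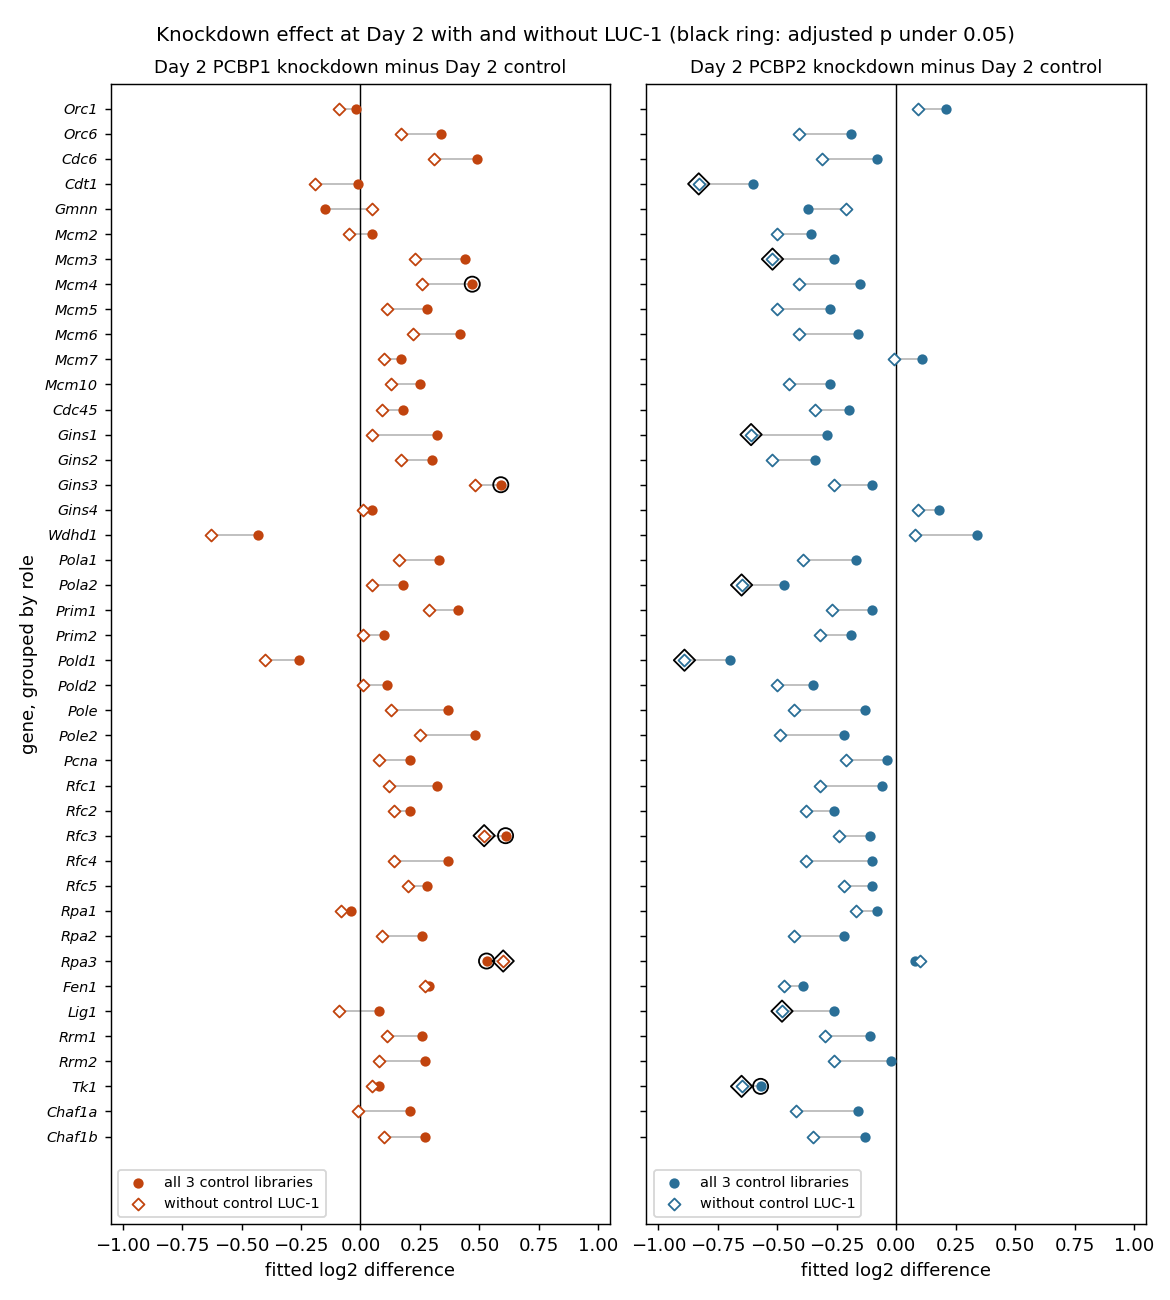
Fitted log2 difference of each of the 42 genes between each knockdown and control at Day 2, with all 3 controls (filled circles) and without LUC-1 (open diamonds), and a black ring where the adjusted p is under 0.05. Most diamonds lie below their circles: without LUC-1 the median is 0.11 for PCBP1 (0.26 with it) and −0.39 for PCBP2 (−0.17 with it), and 2 and 7 genes are ringed (4 and 1 with it).

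The comparisons of both knockdowns with control share the control libraries, so they are set side by side only. The direct comparison of the knockdowns at Day 2 uses no control level. Here 20 of 42 members (47.6%) were lower in PCBP2 knockdown than in PCBP1 knockdown cells and none was higher, against 7.3% of all genes called lower and 4.79% higher. The median difference was −0.47, against −0.01 for all genes, with 39 of 42 below 0 and 35 at an unadjusted p under 0.05. The groups did not overlap, with PCBP2 below, in 17 members (40.5%), against 13.3% of all genes tested. The count moved with single libraries: it was 5 without PCBP1 hairpin 1, 8 without PCBP1 hairpin 4 and 35 without PCBP1 hairpin 3, and 9, 21 and 8 without PCBP2 hairpins 1, 3 and 4. With the 9 libraries of Day 2 alone 1 member was called, Tk1 (adjusted p 0.0405), against 1.24% of all genes called lower and 1.41% higher. Erythroid markers summed to 216000 to 269000 CPM in the PCBP2 knockdown, against 216000 to 223000 CPM in the PCBP1 knockdown, and early progenitor markers to 208 to 229 CPM, against 212 to 286 CPM, and their part in the result was not tested.

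Tk1 had 21.1, 19.9 and 19.3 CPM in the PCBP2 knockdown, against 37.0, 25.2 and 32.3 CPM in the PCBP1 knockdown, a difference of −0.65 (SE 0.11; adjusted p 0.00122). Fen1 had 30.1, 27.2 and 22.4 CPM in the PCBP2 knockdown, against 50.4, 32.2 and 45.3 CPM in the PCBP1 knockdown (−0.68, SE 0.13; adjusted p 0.00277). Rfc3 had 5.72, 5.05 and 6.39 CPM, against 9.91, 8.0 and 10.4 CPM (−0.72, SE 0.14; adjusted p 0.00318). In these 3 genes every PCBP2 library lay below every PCBP1 library, with PCBP1 hairpin 3 the nearest.

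Mcm3 had 47.8, 52.8 and 43.4 CPM in the PCBP2 knockdown, against 87.6, 59.0 and 88.4 CPM in the PCBP1 knockdown (−0.71, SE 0.16; adjusted p 0.00777). Pola2 had 12, 11.7 and 10.4 CPM, against 21.9, 13.1 and 18.4 CPM (−0.65, SE 0.15; adjusted p 0.00805). Rfc2, a further subunit of the clamp loader (chr5:134581366-134601805, plus strand), had 17.9, 15.9 and 15.7 CPM, against 25.9, 18.8 and 23.8 CPM (−0.47, SE 0.11; adjusted p 0.00949). These 3 genes also did not overlap. Mcm4 had 50.1, 56.5 and 43.9 CPM in the PCBP2 knockdown, against 89.1, 61.0 and 81.1 CPM in the PCBP1 knockdown (−0.62, SE 0.15; adjusted p 0.0115). Gins3 had 4.51, 3 and 3.6 CPM, against 5.57, 5.78 and 6.47 CPM (−0.69, SE 0.17; adjusted p 0.0116).

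The 12 further called members were Cdc6, Gins1, Gins2, Mcm5, Mcm6, Mcm10, Orc6, Pola1, Pole2, Prim1, Rpa2 and Rpa3, with differences between −0.46 and −0.69 and adjusted p between 0.0179 and 0.0481. The 20 called members were spread over licensing, helicase activation, primase and polymerases, the clamp loader, RPA, Okazaki processing and nucleotide supply, and of the chromatin assembly genes none was called. Members whose promoter window held E2F letters (13 genes) had a median difference of −0.58 (range −0.72 to 0.22). Those whose window held none (21 genes) had a median of −0.41 (range −0.68 to 0.76), and the overlapping groups were not compared by a test. For the day difference in control these medians were −1.88 and −1.92, and for the Day 2 PCBP1 knockdown against control 0.33 and 0.26.

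At Day 0 no member passed in any knockdown comparison. For the PCBP1 knockdown the median difference from control was −0.03, with 2 genes at an unadjusted p under 0.05, and 0.0457% of all genes were called higher and 0.834% lower. DESeq2 called 1 member and limma-voom 3. Pold1 came nearest: it had 24.7, 32.9 and 27.3 CPM in the Day 0 PCBP1 knockdown, against 44.6, 49.5 and 42.8 CPM in Day 0 control. The groups did not overlap, and the difference was −0.69 (SE 0.18; adjusted p 0.0757). With the 9 libraries of Day 0 alone, whose spread is narrower (common dispersion 0.00749), Pold1 was called at an adjusted p of 0.00677, whereas once the GC trend was removed the difference was −0.32 (adjusted p 0.883). Pold2 had 31.5, 34.7 and 37.7 CPM, against 40.6, 41.5 and 41.2 CPM in control (−0.25; adjusted p 0.436, and 0.049 with the Day 0 libraries alone). Lig1 had 136, 169 and 144 CPM against 177, 177 and 172 CPM in control, and Tk1 had 51.6, 58.9 and 55.4 CPM against 63, 64.5 and 62.2 CPM in control, and neither was called. The knockdown lay below control without overlap in 9 members (21.4%: Cdt1, Chaf1a, Lig1, Mcm2, Pola2, Pold1, Pold2, Rfc2 and Tk1), against 14.7% of all genes. It lay above control without overlap in 2 members (4.76%: Cdc45 and Rpa3), against 10.1% of all genes. The GC content was 52.2% (Rfc2) to 60.7% (Pold1) in the 9 members below, 49.4% in Cdc45 and 40.1% in Rpa3. The part of GC content in these counts was not tested. Hairpin 1 of PCBP1 was the lowest of the 9 Day 0 libraries in 29 members.

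For the PCBP2 knockdown at Day 0 the median difference from control was 0.04, with 0 genes at an unadjusted p under 0.05, and 0 and 0.0229% of all genes were called higher and lower. DESeq2 and limma-voom also called 0 members. The knockdown lay above control without overlap in 6 members (14.3%: Gins4, Mcm7, Pola1, Pole, Rrm1 and Rrm2), against 7.56% of all genes. It lay below control in 3 members (7.14%: Lig1, Pold2 and Tk1), against 5.94% of all genes. The members first by p had adjusted p of 1: Rpa1 (0.11), with 187, 200 and 207 CPM against 186, 178 and 188 in control, Pold2 (−0.12), Rrm2 (0.12) and Rfc3 (0.12). Between the knockdowns at Day 0 no member was called either, with a median of 0.08 and 1 at an unadjusted p under 0.05, against 0.263% of all genes called higher and 0.0171% lower in the PCBP2 knockdown. DESeq2 called 0 members and limma-voom 1. Pold1 had 46.7, 34.7 and 46.0 CPM in the PCBP2 knockdown, against 24.7, 32.9 and 27.3 CPM in the PCBP1 knockdown (0.58; adjusted p 0.29, and 0.035 with the Day 0 libraries alone). Wdhd1 (−0.79), Mcm7 (0.15) and Rpa1 (0.15) followed.

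Other genes of the pathway, a list of 50 symbols that hold 51 gene records because Chtf8 has a pair of gene IDs, behaved in part alike. In control, 42 of 51 fell and 4 rose between Day 0 and Day 2 (median −1.62), with differences of −2.72 for Mcmbp, which binds the helicase, −4.73 for Dctd, the deoxycytidylate deaminase, and −2.65 for Ssrp1, a subunit of the histone chaperone FACT. Among those that rose, Ccne2 (cyclin E2) differed by 3.60. It had 542, 907 and 506 CPM in Day 2 control and 51.6, 52.8 and 57.0 CPM in Day 0 control. In the Day 2 PCBP1 knockdown 9 rose and 2 fell (median 0.24), and without LUC-1 4 rose and 2 fell. The smallest p belonged to Rnaseh2a (−0.87), the catalytic subunit of an RNase H, Donson (−0.66), a replication fork factor, and Orc5 (0.55), a subunit of the origin recognition complex. In the Day 2 PCBP2 knockdown Orc5 rose (0.40) and Asf1b, a histone chaperone, fell (−0.43), and without LUC-1 6 fell and none rose. In PCBP2 against PCBP1 knockdown at Day 2, 17 were lower and 2 higher (median −0.38), with Donson at 0.67, Asf1b at −0.64 and Ccne1 (cyclin E1) at −0.73. Over all genes, 40.5% rose and 42.4% fell between the days in control, 5.51% were higher and 7.61% lower in the Day 2 PCBP1 knockdown (2.82 and 5.46% without LUC-1), 0.949% were higher and 3.75% lower in the Day 2 PCBP2 knockdown (0.558 and 4.25% without LUC-1), and 4.79% were higher and 7.3% lower in PCBP2 against PCBP1 knockdown.

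Of 30 mitosis genes, which mark a later step of the cycle, 26 fell and 3 rose between the days in control (median −0.91). The smallest p among them belonged to Incenp, which rose by 2.69. In the Day 2 PCBP1 knockdown 8 rose and 1 fell (median 0.19), and without LUC-1 none rose and 1 fell. In the Day 2 PCBP2 knockdown 1 fell, Plk1 (−0.53), and 2 fell without LUC-1. In PCBP2 against PCBP1 knockdown 16 were lower and 1 higher (median −0.42), among them Top2a (−0.74) and Ttk (−0.75). The same shares of all genes stand beside these counts. At Day 0 no gene of either list was called in a knockdown comparison.

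Transcript composition was examined in the authors' deposited table of local splicing variations (sets of junctions that share an exon) for each knockdown and day, which gives the share of use (percent spliced in, PSI) over pooled libraries and no spread between replicates. The Day 2 tables listed 601 variations in 41 members for the PCBP1 knockdown and 566 in 41 members for the PCBP2 knockdown. A change of at least 20 points was given in the authors' deposited tables a probability over 0.5 in 4 of the 601 (0.666%, against 0.873% of all variations) and in 2 of the 566 (0.353%, against 0.541%), and none reached 0.95. They lay in Fen1, Gmnn and Orc1. At Day 0 none of the 692 and 693 variations of the members did.

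The Fen1 variation concerns the intron chr19:10201097-10203804 on the minus strand. Its junction had a PSI in the authors' deposited table of 54.0% in the Day 2 PCBP1 knockdown and 57.3% in the Day 2 PCBP2 knockdown, against 32.2% in Day 2 control, with probabilities of 0.664 and 0.799. The expected changes were 22.1 and 25.5 points. At Day 0 it stood at 57.2% in the PCBP1 knockdown and 51.7% in the PCBP2 knockdown, against 50.4% in control, in the authors' deposited table, with expected changes of 4.4 and 0.4 points. Of the 4 annotated Fen1 transcripts only Fen1-202 has this intron. It held 61.9, 78.6 and 78.6% of the Fen1 TPM in the Day 2 PCBP1 knockdown, 72.6, 69.4 and 73.3% in the PCBP2 knockdown and 60.2, 51.8 and 28.8% in Day 2 control.

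Every Day 2 knockdown library was thus above every control, and LUC-1 was far below both scrambled controls. The means were 73.0 ± 9.6% in the PCBP1 knockdown, 71.8 ± 2.1% in the PCBP2 knockdown and 46.9 ± 16.0% in control. Fen1 was picked because the authors' tables, made from the same libraries, listed this junction, so these shares are a description without a test. Against the scrambled controls alone, whose mean was 56.0%, the differences were 17.0 and 15.8 points. At Day 0 the share was 70.3, 71.5 and 75.3% in the PCBP1 knockdown, 67.7, 73.5 and 66.5% in the PCBP2 knockdown and 67.1, 62.5 and 66.0% in control. The exons of Fen1 overlap Gm10143 and Tmem258.

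**Figure D5:**
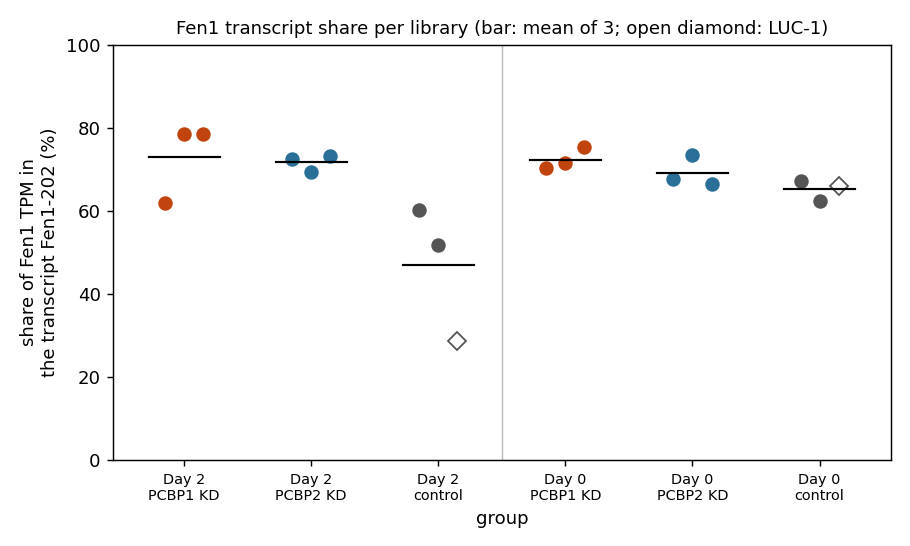
Percent of the Fen1 TPM in each library that Salmon assigned to transcript Fen1-202, with 3 points per group in PCBP1 knockdown, PCBP2 knockdown and control at Day 2 and at Day 0, and a bar at the mean. The Day 2 controls lie at 28.8 to 60.2%, below the Day 2 knockdown libraries at 61.9 to 78.6%, and LUC-1 is the lowest point.

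The remaining variations were in Gmnn and Orc1. The Gmnn junction chr13:24760217-24761813 had in the authors' deposited table a PSI of 93.7% in the Day 2 PCBP1 knockdown against 72.5% in control, with a probability of 0.672. The Orc1 junction chr4:108605677-108612051 had 31.0% in the Day 2 PCBP1 knockdown against 9.1% in control in the authors' deposited table, with a probability of 0.62. Of the 5 annotated Gmnn transcripts, Gmnn-202 and Gmnn-205 hold the Gmnn junction. Together they had 92.8, 84.6 and 88.7% of the Gmnn TPM in the Day 2 PCBP1 knockdown, against 84.9, 91.7 and 71.7% in Day 2 control. These groups overlap, and LUC-1 is the lowest. None of the annotated Orc1 transcripts holds the Orc1 junction, so no share per library is given for it.

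A pair of transcripts was chosen after their values were seen. Pold1-208, annotated as a target of nonsense-mediated decay, lacks the exon chr7:44534385-44534487 that the coding transcript Pold1-201 has. It was assigned 0, 0 and 0 reads in the Day 2 PCBP1 knockdown, 0, 4 and 0 in the Day 2 PCBP2 knockdown and 55, 87 and 96 in Day 2 control, which is 36.6, 39.1 and 82.8% of the Pold1 reads of the controls. At Day 0 its share was 11.7, 3.18 and 11.1% in the PCBP1 knockdown, 6.76, 6.28 and 3.01% in the PCBP2 knockdown and 2.49, 2.33 and 4.6% in control, so the order of the groups was not that of Day 2. In the authors' deposited table for Day 0 the junction that skips the exon, chr7:44534017-44534564, had a PSI of 10.4% in the PCBP1 knockdown and 6.4% in the PCBP2 knockdown, against 3.3% in control, with expected changes of 0.5 and −0.2 points. The authors' tables for Day 2 gave no value for this junction. The Day 2 difference of Pold1-208 therefore rests on the reads that Salmon assigned. Pold1-201 was assigned 110, 71 and 137 reads in the Day 2 PCBP1 knockdown, 78, 94 and 39 in the PCBP2 knockdown and 63, 123 and 0 in Day 2 control, the 0 being LUC-1. The transcripts share most of their sequence, and the split is given as Salmon assigned it.

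Pcna-203, a processed transcript without an annotated coding frame, held 19.6, 24.1 and 24.2% of the Pcna reads in the Day 2 PCBP1 knockdown, 23.2, 24.2 and 23.7% in the PCBP2 knockdown and 17.6, 15.5 and 16.6% in control. At Day 0 it held 21.1, 21.0 and 19.7% in the PCBP1 knockdown, 18.3, 21.5 and 17.4% in the PCBP2 knockdown and 15, 13.5 and 16.2% in control. Both knockdowns were above control without overlap on both days, and LUC-1 did not lie apart from the scrambled controls. How many other transcripts lack overlap in this way was not counted, and Pcna-203 was chosen after its values were seen. The junction chr2:132252000-132252390, which it shares with Pcna-205 and which the coding transcript Pcna-201 lacks, had a PSI in the authors' deposited tables of only 1.8% in the PCBP1 knockdown and 2.0% in the PCBP2 knockdown, against 0.9% in control at Day 2, and of 0.3% and 0.5% against 0.6% at Day 0. The expected change there was 0.0 points in each comparison, so the assigned share and the junction differ.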

How the data were processed

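RNA-seq of 18 libraries was analysed from the processed files. Per the submitters' processing notes, the tools were FastQC 0.11.9, Trim Galore 1.46.0, STAR 2.5.3a, SAMtools 1.9 and Salmon 0.11.3 with GRCm38. The authors deposited, for each transcript, an estimated count, a TPM value and an effective length in bases (Salmon), and 4 tables of local splicing variations whose PSI values (a fraction, given here as a percent) and probabilities are theirs, per the file headers, with the caller not given in the sources used here. Of 111706 transcripts, 110403 matched GENCODE M21, and the 1303 others held 0.275 to 0.579% of the reads and were not used.

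Estimated counts were summed per gene, rounded and filtered (filterByExpr). edgeR 4.0.16 in R 4.3.3 fitted TMM factors and a quasi-likelihood model of the 6 groups to the 18 libraries, with 12 degrees of freedom for the residuals, with 11 comparisons and Benjamini-Hochberg adjustment over 17500 genes. The steps were tested on simulated data. CPM use the TMM-scaled library size, and the members' TPM are sums over transcripts. Log2 values are fitted, n = 3 libraries per group.

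The members and the lists were chosen with earlier results of these data known. Per-library values are given for members called in a knockdown comparison (up to 8 by smallest p, filled to 4), the 6 most positive and 6 most negative day differences in control, Mcm2 to Mcm7, Pcna, Rrm2 and the highest and lowest TPM. Alternatives were other scaling, no filter, DESeq2 1.42.0, removal of a GC trend (loess span 0.3), leaving out libraries and, added after seeing the data, limma 3.58.1 (voom with library weights).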

Additional observations from a re-analysis of the deposited data

How the results depend on the processing

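Of 178 counts of members under an alternative, 146 stayed within 1.5 times the reported count, 31 moved beyond it and 1 reversed, and of 379 values of single members 330 kept their direction and side of the threshold, 49 lost the call and none reversed. The 178 counts pool all 11 comparisons, among them those with a reported count of 0 and the day differences with 40 to 42. The Day 2 knockdown counts moved more than these, as given below. The fall between the days held: leaving out a library gave 40 to 41 members in PCBP1 knockdown, 40 to 40 in PCBP2 knockdown and 40 to 41 in control. Low read numbers limit Rpa3, Gins3, Pold2 and Wdhd1 at Day 2. Reads were also few in the lowest Day 2 library for Gins2 (47 reads), Gins1 (62), Pole2 (67), Pold1 (68) and Rfc3 (90). Counting error and the spread between 3 hairpins were not separated.

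For the Day 2 PCBP1 knockdown against control (4 members), the count was 25 with library totals, 8 with no expression filter, 0 with the 9 libraries of Day 2, 2 without the LUC-1 libraries of both days, 7 with DESeq2 and 1 with limma-voom, and 1 to 19 when a library was left out (19 without PCBP1 hairpin 3, 1 without hairpin 4, 9 without SCR-1, 2 without LUC-1). For the Day 2 PCBP2 knockdown (1 member, lower), library totals gave 1 member higher, a reversed direction. With them the median of all genes was 0.19 in this comparison, against −0.01 with TMM factors. The count was 4 with no filter, 0 with the GC trend removed, 0 with the 9 libraries of Day 2, 3 without both LUC-1 libraries and 5 with DESeq2, and 1 to 7 when a library was left out (7 without LUC-1). For the Day 0 PCBP1 knockdown (0 members), the count was 2 with no filter, 2 with the 9 libraries of Day 0, 3 with limma-voom and 1 with DESeq2, and 0 to 0 when a library was left out. The change of the PCBP1 effect (0 members) had 1 with library totals and 1 with no filter. For PCBP2 against PCBP1 knockdown the Day 2 count (20 members) was 1 with the 9 libraries of Day 2 and 5 to 35 when a library was left out, and the Day 0 count (0 members) was 2 with no filter, 1 with the 9 libraries of Day 0 and 1 with limma-voom. The cause of these moves was not tested.

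With the hairpin as a replicate block across the days, 40 members were called in the PCBP1 knockdown, 40 in the PCBP2 knockdown and 41 in control, 42, 40 and 42 with the block and the GC trend removed, and 0 for both changes of effect. Libraries of the same hairpin did not deviate together across the days (correlations of −0.009 to 0.042), so the block was not used as the main analysis.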
